A study of Homo sapiens with 11 samples.

Results

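The effect of nimesulide was measured across both cisplatin states in SCC9, an established line of squamous carcinoma cells taken from the tongue (also spelled SSC9 in the labels). The comparison set 5 arrays of cells given nimesulide against 6 arrays of cells without it, so that all 11 arrays of the series entered. The arrays with nimesulide were 3 of nimesulide alone (replicates A, B and C, 100 µmol/L) and 2 of the combination with cisplatin (replicates A and B, 100 µmol/L nimesulide with 0.5 µmol/L cisplatin). The arrays without nimesulide were 3 of cisplatin alone (replicates A, B and C, 0.5 µmol/L) and 3 untreated controls (replicates A, B and C). The 11 arrays held none of combination C, so cisplatin C had no partner with nimesulide. The treatment labels set which arrays entered each group, and the comparison itself was chosen with earlier results of these data known. A linear model fitted with limma to all 11 arrays held a term for nimesulide, a term for cisplatin and a term for the replicate letter. The nimesulide term is the log2 difference of arrays with nimesulide minus arrays without it, at the same cisplatin status and letter, and every change below is this term unless another is named.

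Nimesulide is an anti-inflammatory drug that preferentially inhibits cyclooxygenase-2, the inducible enzyme that makes the precursor of prostaglandins. Interferons made by cells act through receptors and JAK kinases on a complex of STAT proteins with IRF9, which binds the interferon-stimulated response element and switches on antiviral genes. IRF7, itself induced by interferon, raises the output of type I interferon and of many of the same genes. A different programme, run by the transcription factor ATF4 with C/EBP partners, switches on amino acid transporters, asparagine and serine synthesis and tRNA synthetases when amino acids are short or the endoplasmic reticulum is stressed. Platinum drugs such as cisplatin crosslink DNA.

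The treatment protocol gave a time of 24 hours after the cells were seeded in dishes, and the order of drug addition and harvest is not taken from it here. The length of exposure was not given in the sources used here. All RNA came from 1 cell line, and nothing in the labels says plainly that the replicates were grown apart, so a p-value here reflects only how much these samples vary. The RMA values of 16383 probe sets (8549 genes, each read by its brightest probe set) were correlated at 0.995 to 0.998 between arrays. Squamous epithelial markers lay on average at the 74.6 to 78.8 percentile of all probe sets on the arrays, while lymphocyte, macrophage, fibroblast and endothelial markers lay between the 25.7 and the 40.2 percentile. The authors' RNA readings were 1.42, 0.89 and 0.849 µg/µl for nimesulide A, B and C and 1.12 and 0.7 µg/µl for combination A and B. They were 1.42, 2.28 and 0.691 µg/µl for cisplatin A, B and C and 1.59, 1.896 and 0.624 µg/µl for control A, B and C. Within the matched pairs of the same letter and cisplatin status, the reading was lower with nimesulide in both A pairs and both B pairs, by more in the B pairs, and higher in the C pair, and the part of RNA yield in the results was not tested.

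Genes of the interferon response were lower with nimesulide, and a smaller set of genes was higher, among them SLC7A11, the cystine importer, and ASNS, the asparagine synthetase. In all, 45 genes fell (0.526% of the genes tested) and 17 rose (0.199%) at a limma adjusted p under 0.05, adjusted by Benjamini-Hochberg over all probe sets. By probe set, 60 of 16383 fell (0.366%) and 25 rose (0.153%), and 1416 (8.64%) had an unadjusted p under 0.05. Of the called genes, 15 fell by 1.5-fold or more, and SPRR1B, a precursor of the cornified envelope, was the 1 gene that rose by as much. Without the term for the replicate letter, 16 genes fell (0.187%) and 7 rose (0.0819%), and all 23 (0.269%) were among the 62 called with it (0.725%). By probe set these were 21 lower (0.128%) and 9 higher (0.0549%). In RNA from whole dishes, less RNA per cell cannot be told apart from fewer cells that make it.

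Among the interferon-stimulated antiviral genes, 24 of the 37 measured fell and 0 rose, against 0.526% and 0.199% of all genes. The list's median change was -0.38, beside -0.0018 over all genes. Of the 37 genes, 36 had a change below 0, and TRIM25, a ubiquitin ligase named here after its value was seen, was the exception at 0.01. The mean level of the list was 7.65 ± 0.08 log2 units on the arrays with nimesulide (SD, n = 5, range 7.57 to 7.78) and 8.12 ± 0.19 on the arrays without it (SD, n = 6, range 7.88 to 8.35). The ranges did not overlap. With nimesulide the A and B arrays lay between 7.57 and 7.78, while without it they stood apart by letter, at 7.93 and 7.88 on cisplatin A and control A and at 8.31 and 8.35 on cisplatin B and control B. Without the letter term 12 of the 24 still passed.

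The promoters of 6 of the genes that fell furthest are shown because they hold the letters GAAANNGAA, the core of the interferon-stimulated response element, searched on both strands. Each stretch is read 5′ to 3′ along the gene, from RefSeq on GRCh38.p14, and capitals mark the matches (as the reverse complement in MX1 and IFI44, whose match lies on the opposite strand).
IFI44L (chr1:78620350-78620408, + strand): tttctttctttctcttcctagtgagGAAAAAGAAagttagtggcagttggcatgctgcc
MX1 (chr21:41431830-41431888, + strand): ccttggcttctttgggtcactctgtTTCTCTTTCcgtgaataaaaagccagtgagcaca
IFI6 (chr1:27672252-27672310, - strand): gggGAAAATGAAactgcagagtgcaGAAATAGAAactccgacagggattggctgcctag
IFI44 (chr1:78649747-78649788, + strand): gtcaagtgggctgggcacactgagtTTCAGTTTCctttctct
RSAD2 (chr2:6865781-6865839, + strand): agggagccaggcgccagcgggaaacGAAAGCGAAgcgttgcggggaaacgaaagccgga
ISG15 (chr1:1013371-1013429, + strand): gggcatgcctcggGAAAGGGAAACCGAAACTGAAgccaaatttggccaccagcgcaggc
In IFI44 the match shown lay 17 to 9 bases before the annotated start, and in IFI44L it lay 73 to 65 bases before it. ISG15 carried 3 overlapping matches in a row.

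The searched window ran from 250 bases before to 50 bases after each annotated start. A match was found in 21 of the 30 list members that had a window (70%), against 9.86% of all 27305 genes with one. It was found in 14 of 20 members that fell and in 7 of 10 that did not pass, so the share was 70% in both. A match in this window is a description of the letters and not a site shown to be bound. OAS1 had no match in its window. MX2, TRIM22 and OAS2 had no window in the table.

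IFI44L and IFI44, the GTPases MX1 and MX2 and the small protein IFI6 were among the genes that fell furthest. IFI44L, an interferon-induced protein with antiviral activity, had levels of 5.25, 5.63 and 5.25 log2 units with nimesulide alone and 5.00 and 5.01 with the combination, against a lowest, median and highest of 6.05, 6.72 and 7.48 without nimesulide. All 5 arrays with nimesulide were below all 6 others, and control B and cisplatin B were the highest of those. The change was -1.56 (SE 0.15, limma adjusted p = 4.88e-05), which is 2.94-fold lower. IFI44, its neighbour on chromosome 1, had 7.70, 8.35, 7.81, 7.79 and 8.12 with nimesulide (alone A, B, C, then combination A, B), against 8.35, 8.72 and 9.21 as the lowest, median and highest without it. Nimesulide B and control A met at 8.35, so the groups touched, and the change was -0.83 (SE 0.07, limma adjusted p = 3.07e-05).

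MX1, a GTPase that blocks the replication of RNA viruses, had levels of 7.86, 8.48, 7.95, 7.87 and 7.95 with nimesulide in the same order, and 8.63, 8.87 and 9.33 as the lowest, median and highest without it. The groups did not overlap, although nimesulide B at 8.48 stood above the other arrays with nimesulide, which reached 7.95. The change was -0.95 (SE 0.08, limma adjusted p = 3.07e-05), or 1.93-fold lower. MX2, the related GTPase that acts on retroviruses, averaged 6.05 ± 0.38 with nimesulide (SD, n = 5) and 6.93 ± 0.29 without it (SD, n = 6). Its groups overlapped, because nimesulide B at 6.58 was above control A at 6.49, and the change was -0.90 (SE 0.09). IFI6, a small membrane protein induced by interferon, fell 1.90-fold, with 7.54 to 8.05 in nimesulide arrays and 8.22 to 9.19 without.

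Genes that sense or degrade viral RNA fell together with these. OAS1, a synthetase of the oligoadenylates that activate RNase L, had 6.35, 6.75, 6.49, 6.30 and 6.64 log2 units with nimesulide, against 6.88, 7.32 and 7.93 as the lowest, median and highest without it. The groups did not overlap, and the change was -0.88 (SE 0.08, limma adjusted p = 4.74e-05), with -1.09 at its other probe set. OAS2 changed by -0.77 (SE 0.14), with overlapping groups, at 6.37 to 7.04 with nimesulide and 6.61 to 8.07 without it. EIF2AK2, the kinase PKR that stops translation when it binds double-stranded RNA, changed by -0.36, and ADAR, which edits double-stranded RNA, by -0.29. IFIT1, which binds viral RNA ends, and the related IFIT3 changed by -0.55 and -0.61 with no overlap of the groups. RSAD2, the radical enzyme viperin, changed by -0.64 and overlapped.

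The remaining members act as modifiers, at membranes or in nuclear bodies. ISG15, a ubiquitin-like protein that is conjugated to other proteins, had 11.03, 11.15, 10.94, 11.04 and 11.11 with nimesulide, against 11.47, 11.73 and 11.88 as the lowest, median and highest without it. Its groups did not overlap, and it fell 1.55-fold (change -0.63, SE 0.06, limma adjusted p = 5.33e-05). Of the membrane proteins that restrict viruses, IFITM1 changed by -0.49, BST2, the tetherin that holds virions at the surface, by -0.38, and IFITM2 by -0.24. PLSCR1, a phospholipid scramblase, changed by -0.40. TRIM22 and TRIM21, ubiquitin ligases of the TRIM family, changed by -0.78 and -0.32. SP110 and SP100, proteins of nuclear bodies, changed by -0.58 and -0.27. IFI27 changed by -0.59, IFI35 by -0.53 and XAF1, an antagonist of an inhibitor of apoptosis, by -0.52, and all of these passed. Without the letter term, OAS1, OAS2, EIF2AK2, ADAR, IFIT3, RSAD2, BST2, IFITM2, TRIM22, TRIM21, SP100 and XAF1 did not pass. The limma adjusted p was then 0.0526 for OAS1, 0.0792 for IFIT3, 0.103 for TRIM22, 0.105 for BST2 and 0.203 for RSAD2.

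**Figure D1:**
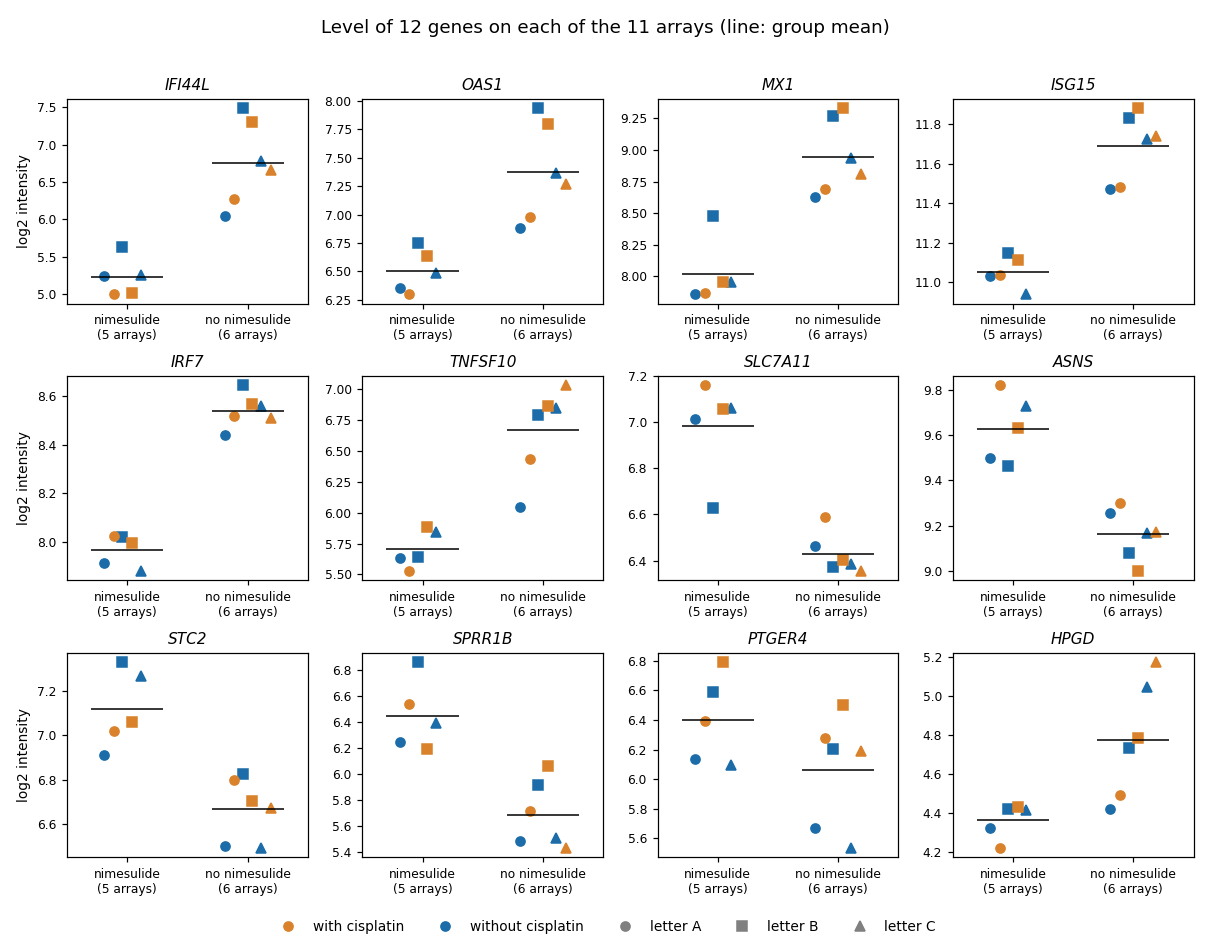
Log2 intensity (vertical axes, each with its own range) of 12 genes on the 5 arrays with nimesulide (left) and the 6 without it (right), 1 point per array, orange with cisplatin, blue without, the marker giving the letter and the line the group mean. IFI44L, OAS1, MX1, ISG15, IRF7 and TNFSF10 lie lower with nimesulide without overlap, SLC7A11, ASNS, STC2 and SPRR1B lie higher without overlap, and PTGER4 and HPGD overlap.

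Of 24 genes for interferon signalling and its transcription factors, 2 fell (8.33%, against 0.526% of all genes) and 0 rose. Both are factors that carry the response in the nucleus. IRF7 had levels of 7.91, 8.02, 7.88, 8.03 and 8.0 log2 units with nimesulide, against 8.44, 8.54 and 8.64 as the lowest, median and highest without it. Its spread within groups was the narrowest of the 12 genes plotted by array, at 7.97 ± 0.07 with nimesulide (SD, n = 5) and 8.54 ± 0.07 without it (SD, n = 6), and the groups did not overlap. The change was -0.57 (SE 0.05, limma adjusted p = 3.07e-05), or 1.49-fold lower. IRF9, the DNA-binding subunit that joins the STAT proteins, had 8.34 to 8.56 with nimesulide and 8.66 to 9.08 without it, a change of -0.35 (SE 0.06, limma adjusted p = 0.00846). Without the letter term the adjusted p was 0.0944 for IRF9 and 0.000191 for IRF7. The others did not pass. MYD88, an adaptor of toll-like receptors, had 9.58 to 9.77 with nimesulide and 9.79 to 9.87 without it (change -0.14, limma adjusted p = 0.351), and the list's median was -0.05.

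TNFSF10, the death ligand TRAIL, had levels of 5.63, 5.64, 5.85, 5.53 and 5.88 with nimesulide, against 6.05, 6.82 and 7.03 as the lowest, median and highest without it. The groups did not overlap, and control A and cisplatin A were the 2 lowest without nimesulide, at 6.05 and 6.44. The change was -0.90 (SE 0.08, limma adjusted p = 3.07e-05), or 1.87-fold lower, and both other probe sets of the gene passed in the same direction, at -0.56 and -0.48. Of 14 measured genes of TRAIL and death receptor signalling, TNFSF10 was the 1 that passed (7.14% fell, against 0.526% of all genes). The list's median change was -0.01.

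In antigen presentation, 3 of 19 genes fell (15.8%, against 0.526% of all genes) and 0 rose, and the 3 are proteasome parts. PSMB9 and PSMB8, catalytic subunits of the immunoproteasome that cuts peptides for class I molecules, changed by -0.46 (SE 0.08, limma adjusted p = 0.0171) and -0.34 (SE 0.05, limma adjusted p = 0.00643). Both overlapped between groups: PSMB9 was 6.58 to 7.61 with nimesulide and 6.83 to 7.90 without it. PSME1, a subunit of the proteasome activator, was 8.65 to 8.91 with nimesulide and 8.95 to 9.21 without it, with no overlap and a change of -0.28 (SE 0.05). TAP1, which pumps the peptides into the endoplasmic reticulum, had a change of -0.29 and did not pass (limma adjusted p = 0.0542). None of the 3 passed without the letter term, where the adjusted p was 0.655 for PSMB9, 0.469 for PSMB8 and 0.0926 for PSME1. APOL1, a secreted and intracellular apolipoprotein, also fell, by 0.30 (SE 0.06), as 1 of 3 measured genes of the APOL and GBP families (0.526% of all genes fell). APOL1 did not pass without the letter term (adjusted p = 0.0551).

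Genes of amino acid supply made up part of what rose. SLC7A11, which exchanges glutamate for cystine, the building block of glutathione, had levels of 7.02, 6.63, 7.06, 7.16 and 7.06 log2 units with nimesulide, against 6.35, 6.39 and 6.59 as the lowest, median and highest without it. The groups did not overlap, with nimesulide B the lowest of its group at 6.63 and cisplatin A the highest of the others at 6.59. The change was 0.57 (SE 0.07, limma adjusted p = 0.000457), or 1.48-fold higher, while its dimmer probe set had 0.19 and did not pass. ASNS, which makes asparagine, had 9.50, 9.46, 9.73, 9.82 and 9.63 with nimesulide, against 9.0, 9.17 and 9.30 as the lowest, median and highest without it. Its groups did not overlap, and the change was 0.48 (SE 0.06, limma adjusted p = 0.000998), or 1.40-fold higher.

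Serine, one-carbon and asparagine synthesis had 2 of 9 genes that rose (22.2%, against 0.199% of all genes) and 0 that fell, with a median of 0.18. The second was MTHFD2, a mitochondrial enzyme of folate metabolism, with 9.63 to 9.84 in nimesulide arrays and 9.33 to 9.61 without (change 0.28, SE 0.05). MTHFD2 lost its call in 10 of the 23 alternative settings, among them leaving out any 1 control array, and ASNS lost its call in 1. PHGDH and PSPH, the first and last enzymes of serine synthesis, had changes of 0.29 (limma adjusted p = 0.0645) and 0.32 (limma adjusted p = 0.109) and did not pass. The mean level of the list was 7.82 ± 0.07 with nimesulide (SD, n = 5) and 7.64 ± 0.07 without it (SD, n = 6), and the ranges met at 7.72. Of the cytosolic tRNA synthetases and XPOT, 1 of 17 rose (5.88%, against 0.199% of all genes), and the list's median was 0.12 with 13 members above 0. The 1 that rose was XPOT, the exporter of tRNA from the nucleus (change 0.34, SE 0.05, limma adjusted p = 0.00549). XPOT did not pass without the letter term (adjusted p = 0.0887), which left no call in that list, or with the letter as a random block. SARS1, a seryl-tRNA synthetase, had 9.90 to 10.10 with nimesulide and 9.69 to 9.89 without it, and did not pass (change 0.20, limma adjusted p = 0.167). Of the amino acid transporters, 1 of 13 rose, SLC7A11 (7.69%, against 0.199% of all genes). SLC7A11 was also the 1 of 23 in the list of NRF2 and glutathione genes that rose (4.35%), where 0 fell and the median was 0.04.

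Of ATF4 and its partner factors, 2 of 17 rose (11.8%, against 0.199% of all genes) and 0 fell, with a median of 0.09. CEBPG, a C/EBP protein that pairs with ATF4, had 7.54, 7.65, 7.68, 7.90 and 7.62 with nimesulide, against 7.10, 7.26 and 7.46 as the lowest, median and highest without it. The groups did not overlap, and the change was 0.39 (SE 0.06, limma adjusted p = 0.00938). STC2, a secreted stanniocalcin also counted among the hypoxia-responsive genes, had 6.91 to 7.33 with nimesulide and 6.49 to 6.83 without it, again without overlap (change 0.45, SE 0.08, limma adjusted p = 0.0171). Its other probe set had 0.21 and did not pass. ATF4 itself had a change of 0.12 (limma adjusted p = 0.570), ATF3 of 0.04 and DDIT3, the factor CHOP, of 0.11, and these 3 did not pass.

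The promoters of ASNS and CEBPG are shown because they are the genes that rose, in these 4 lists, whose window holds TGATGNAA, the core of the element that ATF4 and C/EBP factors bind as a pair. Capitals mark the match, and the source and reading direction are those given above.
ASNS (chr7:97872444-97872501, - strand): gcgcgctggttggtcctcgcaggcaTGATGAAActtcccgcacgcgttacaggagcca
CEBPG (chr19:33374046-33374103, + strand): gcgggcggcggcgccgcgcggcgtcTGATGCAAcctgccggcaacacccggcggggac
The match ended 61 bases before the start in ASNS and 35 bases before it in CEBPG. Among the members of these lists with a window, 2 of 5 that rose held it (40%) and 12 of 41 that did not pass (29.3%), against 4.46% of all genes with a window. STC2, XPOT and MTHFD2 had no match in their windows, and SLC7A11 had no window in the table.

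**Figure D2:**
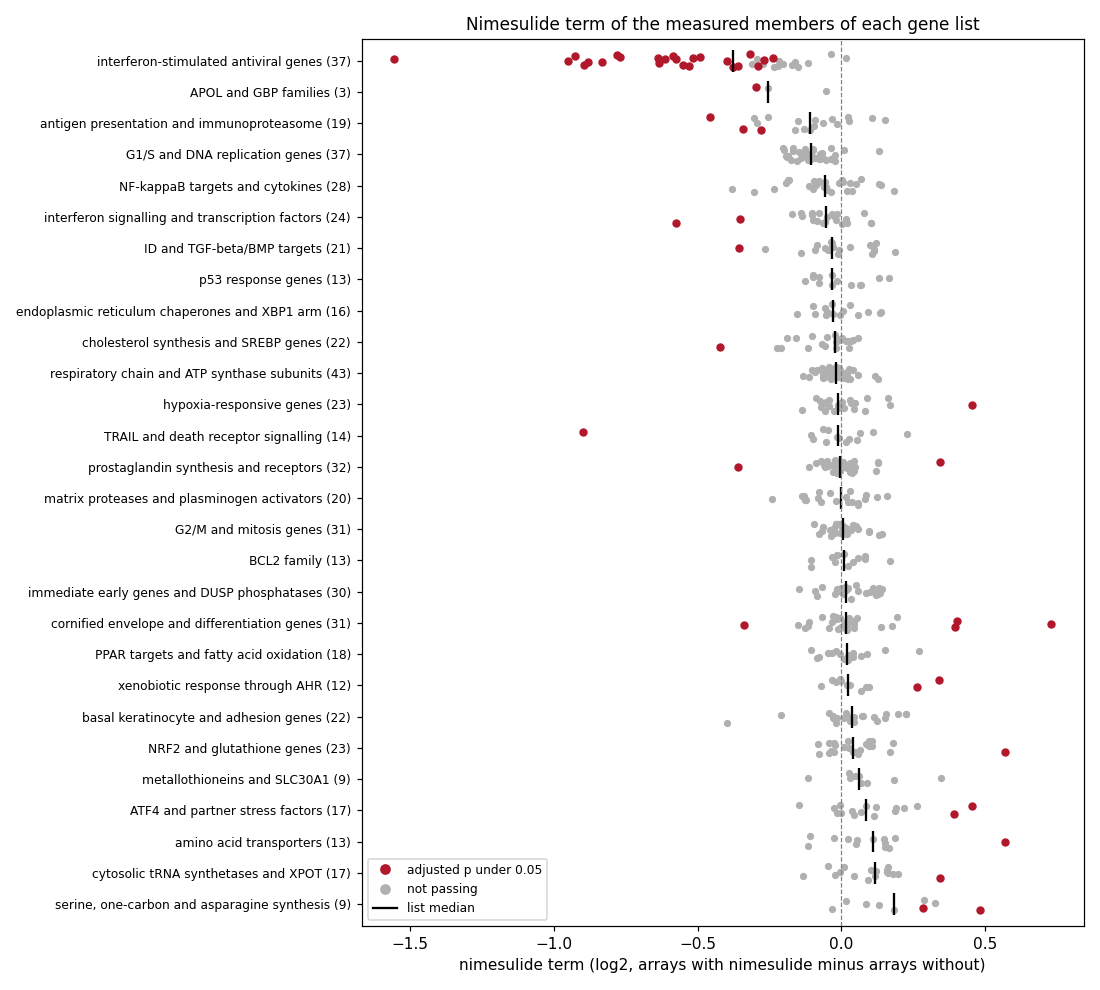
Nimesulide term (horizontal axis, log2, arrays with nimesulide minus arrays without) of every measured member of 28 gene lists, with the number measured in brackets, red where the limma adjusted p was under 0.05 and a bar at the list's median. The interferon-stimulated antiviral genes hold 24 red points, all below 0, with the median at -0.38, and serine, one-carbon and asparagine synthesis has the highest median, 0.18.

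Prostaglandin synthesis and receptors, which include the drug's target, had 1 of 32 genes that rose and 1 that fell, with a median of -0.0050. Over all genes, 0.199% rose and 0.526% fell. PTGS2, the gene of cyclooxygenase-2, had levels of 3.12, 3.27, 3.27, 3.19 and 3.27 log2 units with nimesulide, against 3.14, 3.33 and 3.51 as the lowest, median and highest without it. These are near the lowest value of the arrays (2.53), the groups overlapped, and the change of -0.11 (SE 0.05) did not pass (limma adjusted p = 0.551). PTGS1, the constitutive cyclooxygenase, had a change of 0.13 and did not pass, nor did PTGES, a prostaglandin E synthase, at 0.03. PTGER4, a receptor for prostaglandin E, had 6.14, 6.58, 6.10, 6.39 and 6.79 with nimesulide, against 5.54, 6.20 and 6.50 as the lowest, median and highest without it. Its groups overlapped, since control C and control A at 5.54 and 5.67 were the low arrays while the 3 cisplatin arrays lay between 6.19 and 6.50. The change was 0.34 (SE 0.07, limma adjusted p = 0.0341), and the gene's other probe set had -0.01.

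HPGD, which inactivates prostaglandins, had 4.32, 4.42, 4.42, 4.22 and 4.43 with nimesulide, against 4.42, 4.76 and 5.18 as the lowest, median and highest without it. The arrays with nimesulide were all low and close together, and the groups overlapped at control A. All these levels lay below the array medians of 5.37 to 5.43. On the arrays with nimesulide the mean level of the macrophage markers was 4.31 to 4.45. HPGD lost its call in 14 of the 22 alternative settings that tested it. The change was -0.36 (SE 0.07, limma adjusted p = 0.0323), and its other 3 probe sets had changes of -0.26, -0.02 and -0.13 and did not pass. Neither HPGD nor PTGER4 passed without the letter term, where the adjusted p was 0.330 and 0.469. The receptor genes PTGER1, PTGER2 and PTGER3 had changes of 0.04, 0.03 and -0.05 and did not pass.

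Cornified envelope and differentiation genes had 3 of 31 that rose (9.68%, against 0.199% of all genes) and 1 that fell (3.23%, against 0.526%), with a median of 0.02. SPRR1B had 6.25, 6.86, 6.39, 6.54 and 6.19 log2 units with nimesulide, against 5.43, 5.61 and 6.06 as the lowest, median and highest without it. The groups did not overlap, and the change was 0.73 (SE 0.11, limma adjusted p = 0.00476), or 1.66-fold higher, but the difference between combination B and cisplatin B was only 0.13. CSTA, the protease inhibitor cystatin A, rose by 0.40 and KLK7, a protease of skin shedding, by 0.39, while KLK10, another kallikrein, fell by 0.34. KLK7 varied with the letter, at 8.22, 8.74, 7.98 and 8.06 on nimesulide B, combination B, cisplatin B and control B, and at 9.26, 8.91 and 8.98 on nimesulide C, cisplatin C and control C. Without the letter term KLK7 (adjusted p = 0.769), CSTA (0.416) and KLK10 (0.0792) did not pass, which left SPRR1B as the 1 call in the list, nor did they with the letter as a random block.

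The xenobiotic response through AHR had 2 of 12 genes that rose (16.7%, against 0.199% of all genes). These were CYP1B1, a hydroxylase of steroids and aromatic compounds (0.34, SE 0.06), and ABCG2, a drug efflux pump (0.26, SE 0.05). Neither passed without the letter term (adjusted p = 0.0944 for CYP1B1 and 0.0792 for ABCG2) or with the letter as a random block. The other 3 probe sets of CYP1B1 had 0.01, 0.13 and 0.15 and did not pass. SREBF1, which drives lipid synthesis, fell by 0.42 (SE 0.08) as 1 of 22 genes of cholesterol synthesis, and ID3, an inhibitor of helix-loop-helix factors, fell by 0.36 (SE 0.06) as 1 of 21 targets of TGF-beta and BMP (0.526% of all genes fell). Without the letter term neither passed (adjusted p = 0.469 for SREBF1 and 0.0551 for ID3), and with the letter as a random block SREBF1 did not pass either. Outside the lists, 5 called genes rose and 10 fell. TSC22D1, a leucine zipper protein, rose by 0.46 (SE 0.08), DNAJC6, the clathrin uncoating factor auxilin, by 0.33, ODC1, the first enzyme of polyamine synthesis, by 0.31 and DVL1, a relay of Wnt signals, by 0.30. OLR1, a receptor for oxidised low-density lipoprotein, fell by 0.62 (SE 0.11) and ALPP, an alkaline phosphatase of placenta, by 0.60 (SE 0.09). The others that fell, given so that each of the 62 called genes is named, were SAMHD1, TSPAN8, TRIM14, C4BPB, IGFBP6, SPARC, PLAAT4 and BDNF. These lay between -0.49 and -0.29, and the other that rose was SQSTM1, an autophagy receptor, at 0.26. A further 7 called probe sets had several symbols or none and are not counted as genes. Among them, 1 shared by IFITM2 and IFITM1 changed by -0.42 (limma adjusted p = 0.000373). Of the called genes outside the lists, SQSTM1, C4BPB and IGFBP6 also passed without the letter term. SQSTM1 nevertheless lost its call in 14 of the 23 alternative settings, and C4BPB and IGFBP6 in 5 each.

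Genes of G1/S and DNA replication had 0 of 37 that passed by limma, while 35 of the 37 had a change below 0 and the median was -0.10. Over all genes, 4372 of 8549 were below 0. Within the matched pairs of arrays the list's median was -0.18, -0.02 and -0.13 for nimesulide A, B and C against their controls and -0.23 and 0.02 for combination A and B against cisplatin. The B pairs were thus close to 0, and the mean level of the list was 7.82 to 7.94 with nimesulide and 7.89 to 8.07 without it. POLA1, a subunit of DNA polymerase alpha, had a change of -0.19 (limma adjusted p = 0.303). Genes of G2/M and mitosis had 0 of 31 that passed and a median of 0.0048. The p53 response genes (13 measured), the BCL2 family (13), the NF-kappaB targets and cytokines (28), the endoplasmic reticulum chaperones (16) and the respiratory chain and ATP synthase subunits (43) also had none that passed, with medians from -0.06 to 0.0074.

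Some genes were called at a probe set other than the brightest. VEGFA, the endothelial growth factor, rose by 0.46 at one of its dimmer probe sets, while the brightest had 0.08 and did not pass (limma adjusted p = 0.711). CD44, a receptor for hyaluronan, rose by 0.29 at 1 probe set, and its brightest had 0.22 and did not pass. SHMT2, the mitochondrial serine hydroxymethyltransferase, rose by 0.27 at 1 probe set, against 0.18 at the brightest, which did not pass. MAOA (0.30), STX3 (0.33), TANK (0.33) and ZMYND11 (0.28) likewise rose, and TXNIP, an inhibitor of thioredoxin, fell by 0.28, each at 1 probe set that was not the brightest. Of the 18 called genes with several probe sets, 6 had another one called in the same direction and 15 had all of them on the same side of 0.

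Arrays with the same letter and cisplatin status form 5 pairs that differ in nimesulide. All 62 called genes had the same sign in all 5 pairs. Over all genes, 3.85% were lower and 4.27% higher in all 5 pairs. The pairs use the arrays of the fit, so this describes the called genes and does not test them again. The groups of 5 and 6 arrays did not overlap for 29 of the genes that fell, against 0.503% of all genes, and for 10 of those that rose, against 0.433%. The median of the interferon-stimulated list was -0.24, -0.53 and -0.35 for nimesulide A, B and C and -0.30 and -0.52 for combination A and B, so both A pairs showed the smallest difference. For IFI44L the difference was -0.80, -1.86 and -1.53 for nimesulide A, B and C against control and -1.27 and -2.29 for combination A and B against cisplatin. For OAS2 the A pairs gave -0.16 and -0.32 and the B pairs -1.03 and -1.33. ASNS differed by 0.24, 0.38, 0.56, 0.52 and 0.63 and SLC7A11 by 0.55, 0.26, 0.68, 0.57 and 0.66 over the same pairs.

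**Figure D3:**
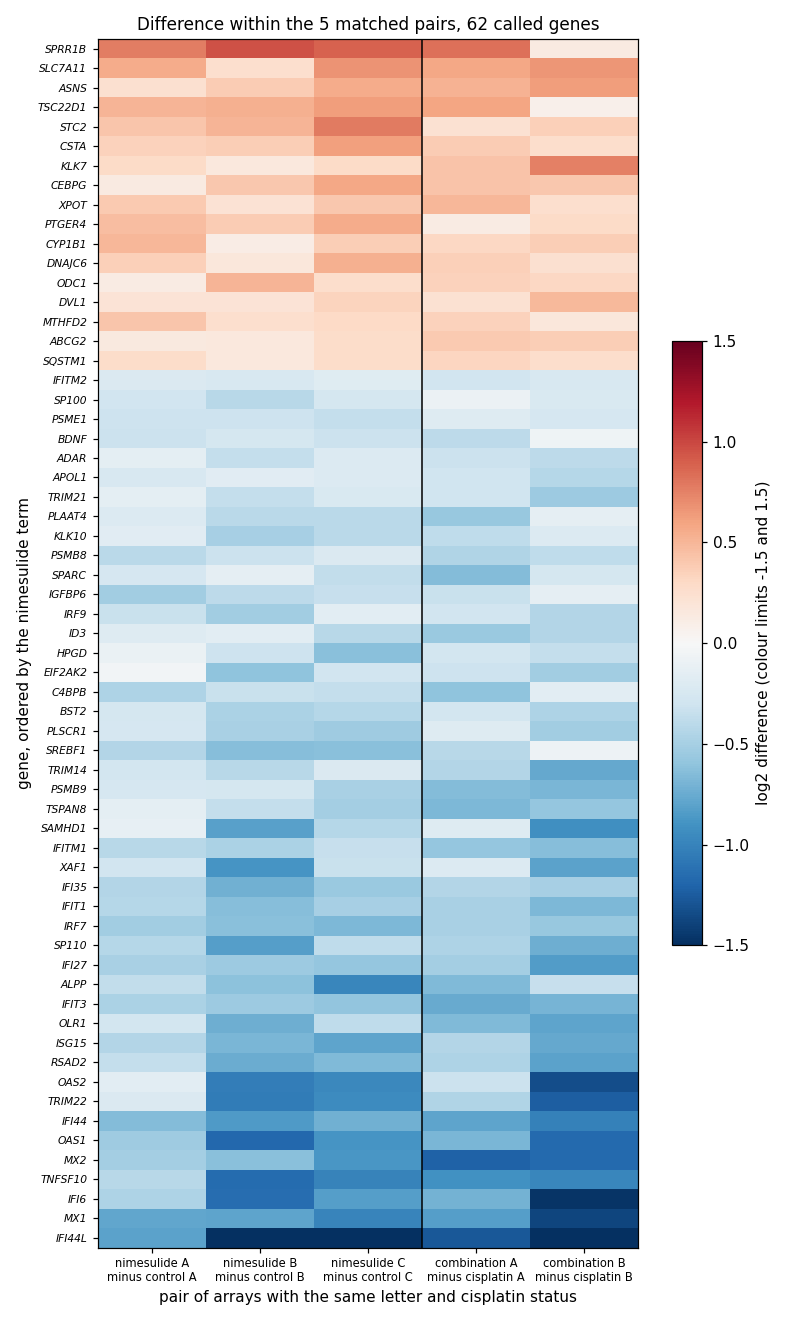
Log2 difference (colour, limits -1.5 and 1.5) of each of the 62 called genes (rows, ordered by the nimesulide term) within the 5 matched pairs (columns), with nimesulide against control on the left of the line and combination against cisplatin on the right. The 17 genes that rose are red and the 45 that fell blue in all 5 columns, and IFI44L ranges from -0.80 to -2.29.

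Whether the effect of nimesulide differed with cisplatin was tested by an interaction term. By limma, 0 probe sets passed (0% called), 1225 (7.48%) had an unadjusted p under 0.05, and the smallest adjusted p was 0.625. For all 62 called genes the effect had the same sign without and with cisplatin. The effect with cisplatin was lower than the effect without it in 31 of the genes that fell and higher in 14, and it was higher in 10 of those that rose and lower in 7. IFI44L changed by -1.77 (SE 0.21) with cisplatin and -1.39 (SE 0.19) without it, and ISG15 by -0.63 (SE 0.09) with cisplatin and -0.64 (SE 0.08) without. The 5 genes with the smallest p for the interaction were CBR1, DDX39A, MX2, NXT2 and TSC2, none of which passed. CBR1, a carbonyl reductase, had an effect of 0.27 with cisplatin and -0.23 without it, and TSC2, a brake on mTOR signalling, of -0.31 with cisplatin and 0.16 without it. MX2 changed by -1.19 (SE 0.09) with cisplatin and -0.67 (SE 0.07) without it. PTGER4 changed by 0.17 (SE 0.09) with cisplatin and 0.47 (SE 0.07) without it, and SREBF1 by -0.23 (SE 0.11) and -0.57 (SE 0.10) in the same order, both with an interaction that did not pass (limma adjusted p = 0.634 and 0.639).

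**Figure D4:**
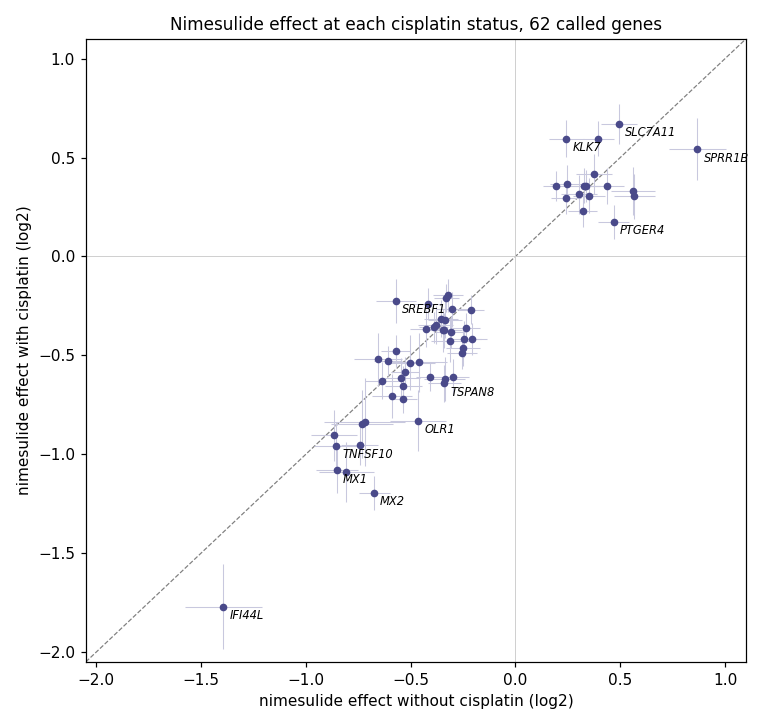
Nimesulide effect of the 62 called genes with cisplatin (vertical axis, log2) against the effect without cisplatin (horizontal axis, log2), with standard errors as bars and the line of equality dashed. All points lie in the quadrants of equal sign, and MX2 (-1.19 with, -0.67 without) and PTGER4 (0.17 with, 0.47 without) are among those off the line.

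The cisplatin term of the same fit called 0 probe sets by limma (1234, or 7.53%, at an unadjusted p under 0.05, and a smallest adjusted p of 0.104). The 2 terms were both estimated from all 11 arrays and so share arrays, and their difference was tested as a contrast. The nimesulide term was below the cisplatin term in 32 genes (0.374%) and above it in 3 (0.0351%), and 28 of the 62 called genes were among these 35 (0.409% of all genes). This contrast contains the nimesulide term by which the 62 were called, so the overlap is partly built in and is no separate support. The 5 genes with the smallest p were TNFSF10, IFI44, IFIT3, IRF7 and ISG15. TNFSF10 had a nimesulide term of -0.90 and a cisplatin term of 0.17 (SE 0.08), and their difference was -1.07 (limma adjusted p = 0.000429). IRF7 had -0.57 and 0.02 (difference limma adjusted p = 0.000976), and IFI44 had -0.83 and 0.07. SPRR1B had 0.73 and -0.04 and was 1 of the 3 above (difference 0.77, limma adjusted p = 0.0376). IFI6 had -0.93 and -0.25, and their difference did not pass (limma adjusted p = 0.0645). PTGER4 had 0.34 and 0.39, a difference of -0.05 (SE 0.09) that did not pass. Without the letter term, 1 probe set passed in this contrast, against 44 with it (0.269% of 16383, with 4 above, 0.0244%, and 40 below, 0.244%).

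**Figure D5:**
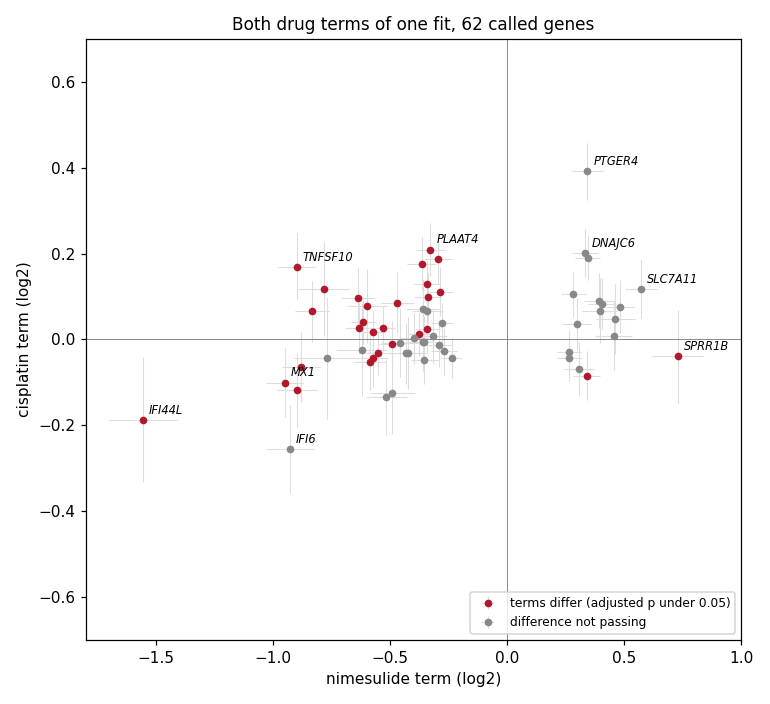
Nimesulide term (horizontal axis, log2) and cisplatin term (vertical axis, log2) of the 62 called genes from the same fit, with standard errors as bars and in red the 28 genes whose 2 terms differed at a limma adjusted p under 0.05. TNFSF10 lies at -0.90 for nimesulide and 0.17 for cisplatin, and PTGER4 at 0.34 and 0.39.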

How the data were processed

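Biotin-labelled cRNA from total RNA of SCC9 cells was hybridised to 11 arrays, 1 per sample. The authors deposited 1 log2 intensity per probe set and array, made with RMA per the submitters' processing notes. Neither its version nor the set of arrays it was run on was given in the sources used here. Because RMA equalises the distributions of the arrays, a change of every transcript in 1 direction could not be seen. The range of 2.53 to 13.4 and array medians of 5.37 to 5.43 fit a log2 scale. RNA readings were read from the authors' deposited protocol text and carry no replicate error.

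All 16383 probe sets were tested with limma 3.58.1, run under R 4.3.3 (lmFit, then eBayes, with two-sided p-values, Benjamini-Hochberg over all probe sets, called at an adjusted p under 0.05), in a fit with terms for nimesulide, cisplatin and letter that left 6 residual degrees of freedom. The interaction was a further term (5 residual degrees of freedom), and nimesulide minus cisplatin a contrast. The platform table gave 1 symbol to 14045 probe sets, several to 792 and none to 1546. A gene was read by its brightest probe set with 1 symbol, and 3362 of 8549 genes had several. Precision is set by how few arrays there are: the nimesulide term had a standard error of 0.058 at the median probe set.

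Lists (33, of 3 to 43 measured members, 621 genes in all) were described by counts and medians. The comparison, its members and the lists were chosen with earlier results of these data known. Named were the 15 genes with the largest change in each direction among called genes of equal sign in 5 pairs, in each list 4 members with the smallest p and any other called, set drug targets and stress factors, genes called only at another probe set, and the 5 with the smallest p in each further contrast. The fit was also run on data simulated from the same design with independent noise. That run checks only whether the calculation recovers added changes, and not whether the arrays or genes are independent. Promoters came from RefSeq (GRCh38.p14), 35116 windows. Alternatives were the letter left out or random, trend or robust eBayes, quantile normalisation, centring, filters on probe sets, and leaving out each array or letter.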

Additional observations from a re-analysis of the deposited data

Results flagged for a closer look

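In groups of 5 or 6 arrays, 18 of 344 groups of named genes (arrays with nimesulide, or arrays without it) had 1 array far from the rest of its group, and chance flags about 1 in 20 groups. Among called genes, nimesulide B was the highest array with nimesulide for MX1 (8.48, next 7.95) and IFI27 (9.95, next 9.63), and the lowest for SLC7A11 (6.63, next 7.02). Combination B was the lowest array with nimesulide for IFITM2 (10.92, next 11.02). Among genes that did not pass, combination B was the highest array with nimesulide for the mitotic genes CENPE (6.46, next 6.14) and KIF14 (7.63, next 7.29) and for TGFBR1 (6.07, next 5.82). Combination A was the highest for ENG (5.75, next 5.55) and VEGFA (6.85, next 6.71) and the lowest for PECAM1 (4.95, next 5.21), STC1 (4.51, next 4.83) and TNFAIP2 (5.85, next 6.21), and nimesulide C was the lowest for PLK2 (9.01, next 9.12). Among arrays without nimesulide, cisplatin B was the highest for CD3E (6.50, next 6.24) and the lowest for UQCRC2 (8.30, next 8.52), cisplatin A the highest for TSC2 (5.72, next 5.56), and control A and control C the highest for RRM2 (10.23, next 10.06) and STC1 (5.20, next 4.95).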

How the results depend on the processing

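All 62 called genes kept their direction in each alternative setting that tested them (23 settings, or 22 for CSTA, HPGD, OLR1 and TSPAN8), and 14 of them passed in each such setting: IFI27, IFI35, IFI44, IFI44L, IFI6, IFIT1, IFITM1, IRF7, ISG15, MX1, MX2, SLC7A11, SP110 and TNFSF10. The number of calls depended on the letter. Without the replicate block, 30 probe sets were called for the nimesulide term, with a random block 39, against 85 with the fixed block, and for nimesulide minus cisplatin the numbers were 1, 8 and 44. Same-letter arrays of different treatments correlated at 0.0831 to 0.355 after removal of treatment means (12 of 15 pairs over 0.1), and different letters at -0.251 to 0.144. In all, 10 of 11 arrays correlated best with their own letter. Removing a treatment mean makes the values of its arrays sum to 0, so positive same-letter correlations push those of different letters down. For the 2 combination arrays it makes the values mirror images. The same-letter and different-letter correlations are thus not independent of each other. They are a hint from the data, and the block stands in the fit by the rule of the comparison. Leaving out an array or a letter gave 27 (without letter B) to 78 probe sets for nimesulide, with 39 without nimesulide C, 53 without control A, 55 without cisplatin B, 44 without letter A and 29 without letter C. For nimesulide minus cisplatin it gave 1 (without letter C) to 57, with 16, 17, 22, 20 and 11 without cisplatin B, cisplatin C, nimesulide B, nimesulide C and letter B. The interaction gave 0 to 1, with 1 without combination A and without letter A. Trend, robust eBayes, quantile normalisation, centring, the interaction term and both probe set filters gave 69 to 111 probe sets for nimesulide. The median of the interferon-stimulated list ran from -0.49 to -0.32 over the settings. Signs turned in prostaglandin genes that never passed: PTGES -0.0058 without the block and -0.0020 with a random block, and with an array or letter left out PTGES ran from -0.11 to 0.13, PTGER1 from -0.011 to 0.065, PTGER2 from -0.066 to 0.088 and PTGER3 from -0.11 to 0.049, and the cause was not tested.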
